A study of Mus musculus with 6 samples.

Results

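The genes described here are 10 genes by which Müller glia, the main glial cells of the retina, keep up the surroundings of retinal neurons: *Glul*, *Slc1a3*, *Aqp4*, *Dkk3*, *Apoe*, *Clu*, *Car14*, *Crym*, *Car2* and *Abca8a*. They were named as a list of glial support genes with the *Mll1KO* and WT values in view, *Clu* and *Glul* having been selected on higher and *Crym* on lower values in *Mll1KO*. The levels of the 10 genes in the 2 genotypes are therefore given as a description, with no p-value, and nothing rests on whether they passed the test used for other genes. All 10 were among the 11339 genes with values. RNA was sequenced from whole retinas of mice at postnatal day 14 (P14), in 3 libraries per genotype (replicates a, b and c), each from 2 retinas. *Mll1KO* mice were homozygous for a floxed allele of *Mll1*, which encodes a histone H3 lysine methyltransferase, and carried *Chx10-Cre*. Cre from this transgene is active in progenitors while the retina forms, so that deletion was not limited to Müller glia. The comparison group was wild type without alleles named in its label, and the strain of both groups was labelled C57Bl6/J. Whether the groups were littermates is not given in the sources used here. No group carried Cre without floxed alleles, so effects of Cre or of the line cannot be told apart from loss of *Mll1*. Females and males were both used in the study, and the sex of the retinas in each library is not given in the sources used here. Depth is not given and was inferred as the library total at which the values turn into whole reads. For WT replicates a to c this total was 23836033, 19777205 and 19323512, and for *Mll1KO* replicates a to c it was 23348923, 19855963 and 17961097.

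Müller glia span the retina and are born from the same progenitors as the neurons around them. They clear glutamate released at synapses through the transporter GLAST (*Slc1a3*), turn it into glutamine with glutamine synthetase (*Glul*), and move water through the channel aquaporin 4 (*Aqp4*) and carbon dioxide and bicarbonate with the help of carbonic anhydrases. They also secrete lipid carriers and chaperones such as apolipoprotein E (*Apoe*) and clusterin (*Clu*). Several of these genes are not limited to Müller glia, since astrocytes express *Slc1a3*, *Glul*, *Aqp4*, *Apoe* and *Clu*, and the pigment epithelium behind the retina expresses *Car14*.

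As a check of the labels, the deleted gene was measured first, which is listed under its newer symbol *Kmt2a*. Its level in RPKM (reads per kilobase, scaled to library size) was 36.1, 36.9 and 34.6 in WT and 22.9, 20.4 and 22.3 in *Mll1KO*. All 3 *Mll1KO* libraries were below all 3 WT libraries, at 60.9% of the WT mean, with a log2 fold change of -0.69 (SE 0.05, limma adjusted p = 2.77e-05). Exons outside the floxed part are still transcribed, and whole retina holds cells outside the Cre lineage, so the value is no measure of the share of cells deleted.

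Fold changes are on the scale of log2(RPKM + 1), which understates the change of weakly expressed genes, and a gene passed the test at a limma adjusted p under 0.05 across all 11339 genes. By that rule 23.3% of all genes passed, 8.81% higher and 14.5% lower in *Mll1KO*. Of the 10 support genes, 7 passed, 6 of them higher and 1 lower, and nothing is read from this count because the genes were selected on the same contrast. The groups did not overlap, in that all 3 libraries of one genotype were above all 3 of the other, for the same 7 genes. Across all genes this held for 41.1%, with *Mll1KO* above WT for 14.6% and below WT for 26.5%. The split of the genes that passed, 999 higher and 1644 lower, depended on the scaling of the libraries, and was 1257 higher and 1163 lower with TMM factors, 1272 and 1140 with upper-quartile factors, and 1276 and 1126 with median-ratio factors. With libraries scaled to an equal sum over 19 Müller glia identity genes it was 2066 higher and 724 lower. When 8 rod genes, which were more abundant in *Mll1KO*, were set to equal sums, the median over all genes moved from -0.03 to -0.33 on the log2 scale and 180 genes passed higher and 9785 lower. Rod scaling multiplies all genes of a library by the same factor, so the median and the 10 genes shift together. Measured from that median, no difference of the 10 genes moved by more than 0.04, which follows from the scaling and is no result about them.

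**Figure D1:**
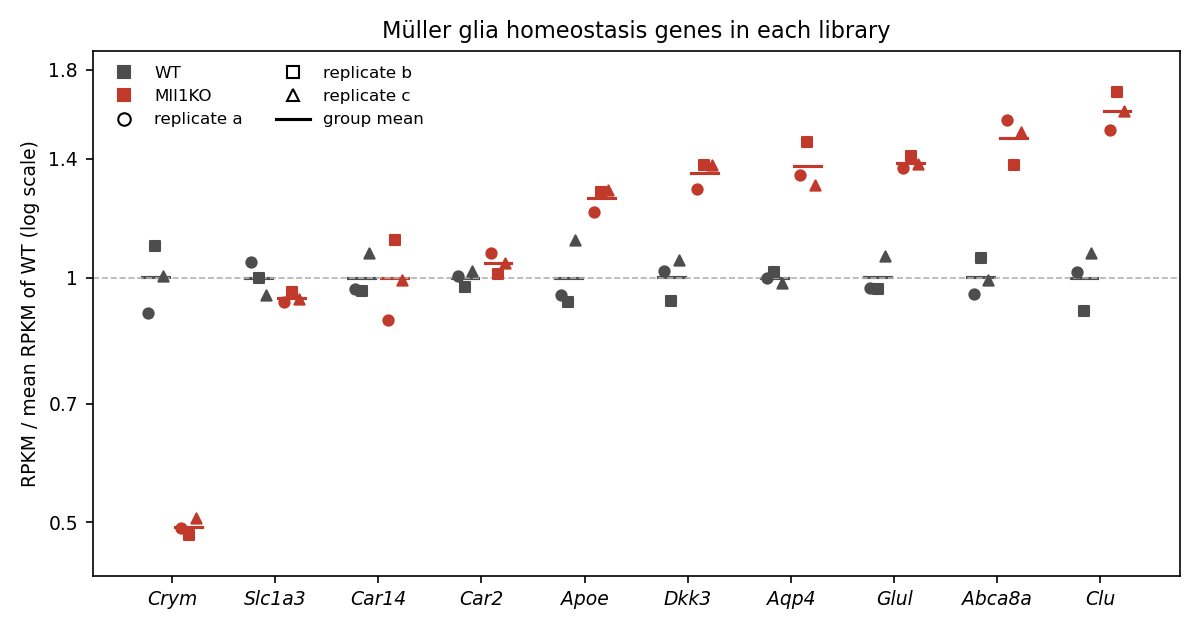
RPKM of the 10 genes in each library, divided by the WT mean of the gene and drawn on a log axis, with WT in grey, *Mll1KO* in red, a symbol for each replicate and a bar for each group mean. *Crym* lies at 0.493 of WT in *Mll1KO*, the groups overlap for *Slc1a3*, *Car14* and *Car2*, and the other 6 genes lie at 1.26 to 1.61 of WT, of which *Apoe* reaches a log2 difference of -0.01 when libraries are scaled to rod genes.

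The glutamate to glutamine step and the uptake before it differed in their values. *Glul* (ENSMUSG00000026473, GRCm38 chromosome 1, 153899944 to 153909723, plus strand) had RPKM values of 510.1, 509.7 and 559 in WT and 718, 742 and 725 in *Mll1KO*. The means were 526 ± 28.3 (SD, n = 3) and 729 ± 12.3 (SD, n = 3), a log2 difference of 0.47 (SE 0.05), or 0.13 under rod scaling, on 33495 to 55723 reads per library. The lowest *Mll1KO* library stood above the highest WT library by more than the whole range of either group. *Slc1a3* (ENSMUSG00000005360, chromosome 15, 8634124 to 8710764, minus strand), which encodes the transporter that brings glutamate in, had values of 23.4, 22.4 and 21.3 in WT and 20.9, 21.5 and 21.1 in *Mll1KO*. The groups overlapped, since *Mll1KO* replicate b was above WT replicate c, and the log2 difference was -0.08 (SE 0.05), or 0.01 with libraries scaled to the Müller glia identity genes and -0.41 under rod scaling. Within each library, the level of *Glul* was 21.8, 22.7 and 26.3 times that of *Slc1a3* in WT and 34.4, 34.5 and 34.4 times in *Mll1KO*. This ratio does not change with the scaling of a library. Of the *Glul* exon bases, 3.5% overlap exons of *Teddm2* on the opposite strand and the microRNA gene *Mir8114*, and reads there may be shared.

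Because retina was sequenced in bulk, a change in the number of cells of a type and a change in RNA per cell cannot be told apart for any gene here.

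Among 13 listed companion genes of glutamate and glutamine handling, 3 rose and 2 fell, with a median log2 fold change of 0.03 against -0.03 over all genes; scaled to rod genes, 1 rose and 12 fell. The largest change was in *Slc7a11*, the cystine and glutamate exchanger, at 0.866, 0.594 and 0.856 RPKM in WT and between 2.78 and 3.43 in *Mll1KO*. This is 4.05 times the WT mean and a log2 fold change of 1.22 (SE 0.08, limma adjusted p = 1.34e-05). The glutamine transporter *Slc38a3* rose from a mean of 174 ± 2.75 to 199 ± 11.4 RPKM (SD, n = 3; log2 fold change 0.20, SE 0.05, limma adjusted p = 0.0163), with an adjusted p of 0.00359 to 0.0634 over the alternatives, the highest without WT replicate b, and passed as lower under rod scaling, at -0.15 (0.0282). Another glutamine transporter, *Slc38a5*, fell from 4.16 ± 0.224 to 2.59 ± 0.131 RPKM (SD, n = 3; log2 fold change -0.52, SE 0.06, limma adjusted p = 2.57e-04). The neuronal glutamate transporter *Slc1a7* fell from 80.2 ± 3.15 to 69.3 ± 2.62 RPKM (SD, n = 3; log2 fold change -0.21, SE 0.04, limma adjusted p = 0.00894), with an adjusted p of 3.71e-06 to 0.0871 over the alternatives, the highest when scaled to Müller glia identity genes. *Got1*, a transaminase that makes and uses glutamate, had means of 89.6 and 97.7 RPKM and did not pass (limma adjusted p = 0.0526, and 0.00642 to 0.192 over the alternatives other than rod scaling). It passed with TMM factors and without WT replicate c, among others, and its log2 fold change of 0.12 became -0.22 under rod scaling, where it passed as lower (0.00188). *Slc1a5* and *Gls2* were not listed.

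Water handling was represented by *Aqp4* (ENSMUSG00000024411, chromosome 18, 15389496 to 15410982, minus strand), the channel in the glial endfeet. Its RPKM was 13, 13.2 and 12.8 in WT and 17.4, 19.1 and 16.9 in *Mll1KO*. The mean of 17.8 ± 1.17 (SD, n = 3) in *Mll1KO* was 137% of the WT mean of 13 ± 0.217 (SD, n = 3), a log2 difference of 0.42 (SE 0.05), or 0.10 under rod scaling. The groups did not overlap, and *Mll1KO* replicate b was the highest library.

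Of 15 listed companion genes for water and potassium, 3 rose and 3 fell, with a median of -0.08. With TMM, upper-quartile, median-ratio and identity scaling 3 rose and 1 fell, and under rod scaling 1 rose and 12 fell. The water channel *Aqp1*, which photoreceptors and some amacrine cells express, had 33.5, 31.2 and 37.1 RPKM in WT and 69.6, 60.7 and 61.8 in *Mll1KO*. It rose by 0.90 on the log2 scale (SE 0.07, limma adjusted p = 3.68e-05). The potassium channel *Kcnj10* (Kir4.1), which sits with AQP4 in the endfoot membrane, rose from 13 ± 0.871 to 16.9 ± 0.258 RPKM (SD, n = 3; log2 fold change 0.36, SE 0.05, limma adjusted p = 0.00122), a change of 0.03 under rod scaling that did not pass. *Agrn*, which encodes the matrix protein agrin that organises the endfeet, fell from 45.9 ± 1.96 to 38.5 ± 0.156 RPKM (SD, n = 3; log2 fold change -0.25, SE 0.04, limma adjusted p = 0.00243). *Atp1b2*, a subunit of the sodium pump and the most abundant gene of the list, had means of 611 and 621 RPKM with overlapping groups (log2 fold change 0.03, SE 0.06, limma adjusted p = 0.778), and passed as lower under rod scaling, at -0.32. *Kcnj16* and *Trpv4* were not listed.

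The 2 carbonic anhydrases among the 10 genes had overlapping groups. *Car2* (ENSMUSG00000027562, chromosome 3, 14886273 to 14900770, plus strand), the cytosolic enzyme, had RPKM values of 234, 227 and 237 in WT and 249.9, 235 and 243 in *Mll1KO*. Only *Mll1KO* replicate b was within the WT range, and the log2 difference was 0.06 (SE 0.04), or -0.28 under rod scaling. *Car14* (ENSMUSG00000038526, chromosome 3, 95897768 to 95904691, minus strand), the membrane enzyme with its active site outside the cell, had values of 23.2, 23.1 and 25.7 in WT and 21.3, 26.7 and 23.8 in *Mll1KO*. The highest and the lowest library were both *Mll1KO*, and the log2 difference was -0.01 (SE 0.08), against 0.02 with TMM factors, 0.08 with identity scaling, -0.34 under rod scaling and values from -0.09 to 0.07 when single libraries were left out. In *Car14* 17.5% of the exon bases overlap exons of *Aph1a* on the opposite strand, so that some reads may be shared, and 1085 to 1409 reads were recovered per library.

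The 6 listed markers of the pigment epithelium varied in the same libraries that were high in *Car14*. Their summed RPKM was 224, 118 and 334 in WT and 108, 230.3 and 112 in *Mll1KO*, highest in WT replicate c and *Mll1KO* replicate b, which also held the highest *Car14*, *Clu* and *Glul* values of their genotype. *Ttr* was the most abundant of them, at 75.1, 65.8 and 101 in WT and 54.8, 93.7 and 53.9 in *Mll1KO*, and none of the 6 passed the test, while 3 fell under rod scaling. *Rpe65*, *Best1*, *Lrat*, *Tyr* and *Mlana* were not listed. Without these 2 libraries the log2 differences were -0.04 for *Car14*, 0.70 for *Clu*, 0.50 for *Glul* and -0.95 for *Crym*, and 1662 genes passed across the table. This setting was chosen after seeing the data. The part of the pigment epithelium in the values of *Car14* within a genotype was not tested.

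**Figure D2:**
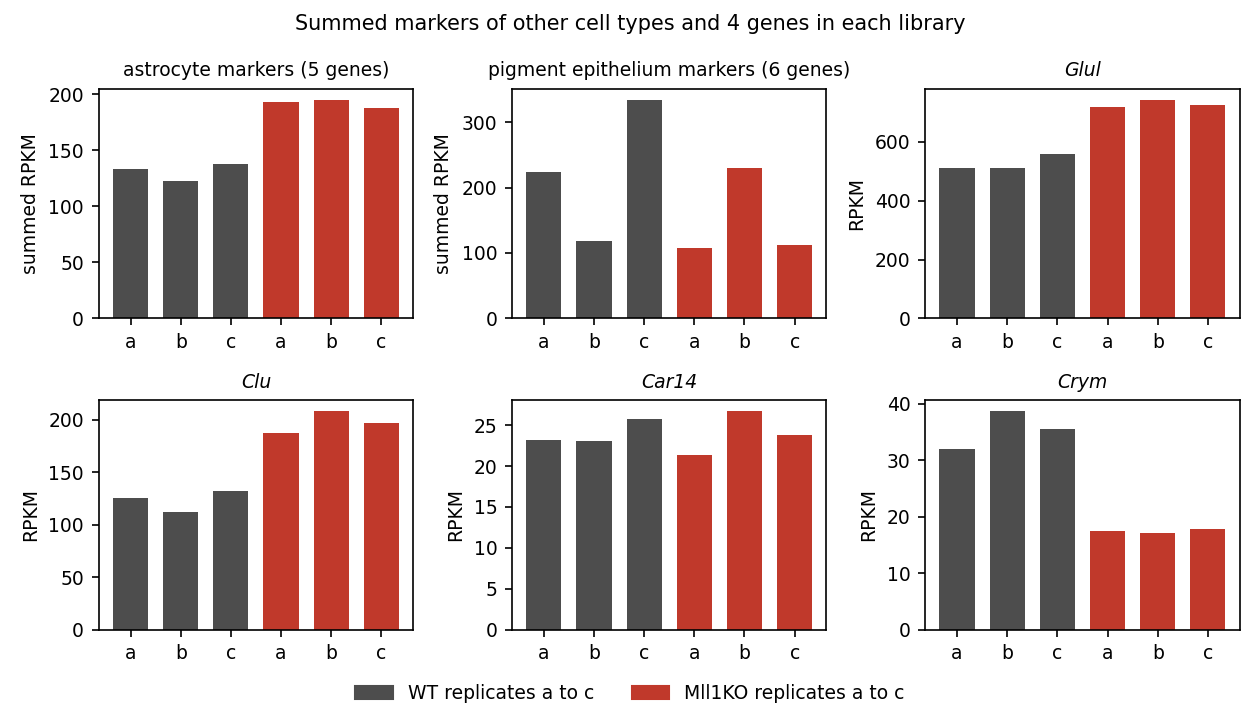
Summed RPKM of 5 astrocyte and 6 pigment epithelium markers, and RPKM of *Glul*, *Clu*, *Car14* and *Crym*, as bars for each library from 0, with WT replicates a to c in grey and *Mll1KO* replicates a to c in red. Pigment epithelium markers are highest in WT replicate c and *Mll1KO* replicate b. The astrocyte sum, most of it *Aldoc*, as well as *Glul* and *Clu* are higher in all 3 *Mll1KO* libraries, and *Crym* is lower.

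Among 13 listed companion genes for carbon dioxide and acid-base handling, 3 rose and 4 fell, with a median of 0.07. With identity scaling 7 rose and 4 fell, and under rod scaling 0 rose and 10 fell. The anion exchanger *Slc4a3* had 30.1, 31.7 and 31.3 RPKM in WT and 17.9, 18.6 and 19.7 in *Mll1KO*, and fell by 0.70 on the log2 scale (SE 0.05, limma adjusted p = 1.52e-05). The bicarbonate cotransporter *Slc4a7* fell from 34.2 ± 1.85 to 28.4 ± 1.30 RPKM (SD, n = 3; log2 fold change -0.26, SE 0.05, limma adjusted p = 0.00597). *Car8*, a relative of the carbonic anhydrases without catalytic activity, fell from 11.1 ± 0.176 to 9.03 ± 0.455 RPKM (SD, n = 3; log2 fold change -0.27, SE 0.05, limma adjusted p = 0.00424). The lactate transporter *Slc16a1* rose from 40.4 ± 1.84 to 50.6 ± 2.27 RPKM (SD, n = 3; log2 fold change 0.32, SE 0.05, limma adjusted p = 0.00146), a change of -0.02 under rod scaling that did not pass. Its partner *Bsg* (basigin), the most abundant gene of the list, rose from 414 ± 12.7 to 475 ± 8.54 RPKM (SD, n = 3; log2 fold change 0.20, SE 0.05, limma adjusted p = 0.0124). Over the alternatives the adjusted p was 0.0019 to 0.0555, with the call lost without WT replicate b (0.0555) and without *Mll1KO* replicate c (0.0509), and it passed as lower under rod scaling, at -0.14 (0.0315). *Car3*, *Car4*, *Car5b*, *Car7*, *Car12* and *Car13* were not listed.

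Both lipid genes were higher in *Mll1KO*, with the caveat that *Apoe* was not when scaled to rod genes. *Apoe* (ENSMUSG00000002985, chromosome 7, 19696109 to 19699188, minus strand), the lipid carrier of the glia, had RPKM values of 318, 312 and 371 in WT and 402, 426 and 428 in *Mll1KO*. The means were 334 ± 32.4 and 419 ± 14.5 (SD, n = 3), a log2 difference of 0.33 (SE 0.07), or -0.01 under rod scaling. Among the 6 higher genes, *Apoe* had the narrowest gap between the groups in proportion to its level, since WT replicate c stood well above the other 2 WT libraries. *Abca8a* (ENSMUSG00000041828, chromosome 11, 110025634 to 110095978, minus strand), an ABC transporter of lipids, had values of 26.7, 29.6 and 27.8 in WT and 43.7, 38.5 and 42.3 in *Mll1KO*. The *Mll1KO* mean was 148% of the WT mean, a log2 difference of 0.55 (SE 0.06), or 0.21 under rod scaling, on 3366 to 6397 reads, and the groups did not overlap.

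*Abca8a* lies in a row of related genes on the minus strand of chromosome 11, in the order *Abca8b*, *Abca8a*, *Abca9*, *Abca6* and *Abca5* by coordinate. Its neighbour *Abca8b*, from 109932190 to 109995845, had 4.02, 3.64 and 3.8 RPKM in WT and 5.60, 5.03 and 5.33 in *Mll1KO*. *Abca8b* rose by 0.39 on the log2 scale (SE 0.06, limma adjusted p = 0.00134), and did not pass under rod scaling, at 0.11. *Abca6*, from 110176820 to 110251776 and looked at after its values were seen, had 1.08, 1.20 and 1.36 RPKM in WT and 1.9, 1.61 and 1.79 in *Mll1KO* (log2 fold change 0.32, SE 0.06, limma adjusted p = 0.00594). *Abca5*, from 110269369 to 110337716, had overlapping groups at means of 4.9 and 4.8 RPKM (log2 fold change -0.02, SE 0.05, limma adjusted p = 0.782). *Abca9* was not listed. Genes so alike can share reads, which bears most on the weakly expressed ones.

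Of 22 listed companion genes for cholesterol and lipid transport, 5 rose and 3 fell; scaled to rod genes, 0 rose and 18 fell. *Abca1*, which loads cholesterol onto apolipoprotein E, fell from 8.20 ± 0.282 to 5.69 ± 0.429 RPKM (SD, n = 3; log2 fold change -0.46, SE 0.06, limma adjusted p = 6.89e-04). The neuronal apolipoprotein E receptor *Lrp8* fell from 19.1 ± 0.933 to 14 ± 1.03 RPKM (SD, n = 3; log2 fold change -0.42, SE 0.06, limma adjusted p = 9.27e-04). The sorting receptor *Sorl1* rose from 14 ± 0.475 to 18.6 ± 1.27 RPKM (SD, n = 3; log2 fold change 0.38, SE 0.06, limma adjusted p = 0.00122), a change of 0.05 under rod scaling that did not pass. The sterol regulator *Srebf2* and the transporter *Abca2*, the most abundant genes of the list, had overlapping groups (limma adjusted p = 0.34 and 0.954), and both fell under rod scaling, by 0.41 and 0.33. *Abca9*, *Nr1h3* and *Apod* were not listed.

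*Clu* had the largest positive difference of the 10 genes. *Clu* (ENSMUSG00000022037, chromosome 14, 65968483 to 65981547, plus strand), a secreted chaperone, had RPKM values of 125, 112 and 132 in WT and 187, 208 and 197 in *Mll1KO*. The means were 123 ± 10.3 and 198 ± 10.5 (SD, n = 3), 161% of WT and a log2 difference of 0.68 (SE 0.06). It was still higher in *Mll1KO* under rod scaling, with a difference of 0.34, and it lay between 0.62 and 0.74 when each library was left out in turn. *Dkk3* (ENSMUSG00000030772, chromosome 7, 112116017 to 112159057, minus strand), a secreted member of the Dickkopf family, had values of 161, 148 and 166 in WT and 203, 217 and 217 in *Mll1KO*. No *Mll1KO* library was within the WT range, and the log2 difference was 0.42 (SE 0.05), or 0.08 under rod scaling.

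The companion list of secreted glial proteins held 12 listed genes, of which 6 rose and 0 fell, with a median of 0.18; scaled to rod genes, 2 rose and 5 fell. Vitronectin (*Vtn*) had 188, 185 and 195 RPKM in WT and 297, 286 and 281 in *Mll1KO*, and rose by 0.60 on the log2 scale (SE 0.04, limma adjusted p = 2.53e-05). Ceruloplasmin (*Cp*), a copper-carrying ferroxidase, rose from 12.3 ± 0.634 to 19.3 ± 0.816 RPKM (SD, n = 3; log2 fold change 0.60, SE 0.05, limma adjusted p = 6.61e-05). Under rod scaling both still passed as higher, at 0.26 for *Vtn* and 0.28 for *Cp*. *Timp3*, an inhibitor of matrix proteases, rose from 7.34 ± 0.898 to 10.6 ± 1.47 RPKM (SD, n = 3; log2 fold change 0.47, SE 0.10, limma adjusted p = 0.00809), a change of 0.16 under rod scaling that did not pass. The protease inhibitor cystatin C (*Cst3*), the most abundant of the list, rose from 382 ± 14.3 to 492 ± 30.0 RPKM (SD, n = 3; log2 fold change 0.36, SE 0.06, limma adjusted p = 0.00176), a change of 0.02 under rod scaling that did not pass.

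In DKK and WNT signalling, 0 of 13 listed companion genes rose and 3 fell, with a median of -0.01. These 3 are 23.1% of the list, against 23.3% of all genes that passed and 14.5% that passed as lower. With TMM factors 1 rose and 3 fell, and scaled to rod genes 0 rose and 11 fell. *Lrp4*, a receptor that binds agrin and WNT antagonists, had 25.1, 28.6 and 24.1 RPKM in WT and 15.6, 14.5 and 14.7 in *Mll1KO*, and fell by 0.76 on the log2 scale (SE 0.06, limma adjusted p = 5.52e-05). The secreted antagonist *Sfrp1* fell from 3.20 ± 0.621 to 1.72 ± 0.486 RPKM (SD, n = 3; log2 fold change -0.63, SE 0.13, limma adjusted p = 0.00809). The ligand *Wnt2b* fell from 6.54 ± 0.265 to 4.8 ± 0.163 RPKM (SD, n = 3; log2 fold change -0.38, SE 0.05, limma adjusted p = 9.95e-04). *Ctnnb1* (beta-catenin), the most abundant gene of the list, had means of 87.2 and 84.6 RPKM with overlapping groups (limma adjusted p = 0.572), and fell by 0.38 under rod scaling. *Dkk1*, *Dkk2*, *Dkkl1*, *Kremen2*, *Sfrp2*, *Sfrp5*, *Wif1* and *Lef1* were not listed.

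*Crym* (ENSMUSG00000030905, chromosome 7, 120186380 to 120202111, minus strand) was the member that was lower in *Mll1KO*. It encodes mu-crystallin, a ketimine reductase that binds thyroid hormone in the cytosol. Its RPKM was 32, 38.7 and 35.6 in WT and 17.4, 17.1 and 17.9 in *Mll1KO*. The *Mll1KO* libraries lay close together, at 17.5 ± 0.433 (SD, n = 3), while the WT libraries spread more widely, at 35.4 ± 3.32 (SD, n = 3). The *Mll1KO* mean was 49.3% of WT, a log2 difference of -0.98 (SE 0.06) on 1092 to 2593 reads, with values from -1.31 under rod scaling to -0.84 with a pseudocount of 5. Within a library, the level of *Clu* was 3.90, 2.89 and 3.71 times that of *Crym* in WT and 10.7, 12.2 and 11 times in *Mll1KO*.

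Among 16 listed companion genes for thyroid hormone handling, 1 rose and 3 fell. That is 25.0% of the list, near the 23.3% of all genes that passed. With identity scaling 3 rose and 1 fell, and under rod scaling 0 rose and 14 fell. *Slc7a8*, an amino acid transporter that also carries thyroid hormones, fell from 33.5 ± 1.69 to 26.9 ± 1.24 RPKM (SD, n = 3; log2 fold change -0.31, SE 0.05, limma adjusted p = 0.00225). The thyroid hormone receptor *Thra*, among the most abundant of the list, fell from 86.5 ± 3.35 to 76.3 ± 0.385 RPKM (SD, n = 3; log2 fold change -0.18, SE 0.04, limma adjusted p = 0.011), with an adjusted p of 2.4e-06 to 0.168 over the alternatives. The call was lost when libraries were scaled to Müller glia identity genes (0.168) and without both libraries highest in pigment epithelium markers (0.0937). The hormone transporter *Slco1c1* rose by 0.26 (SE 0.08, limma adjusted p = 0.0348), with an adjusted p of 0.0102 to 0.952 over the alternatives and a change of 0.01 under rod scaling that did not pass. Its call was also lost without WT replicate a, WT replicate c, *Mll1KO* replicate a or *Mll1KO* replicate b (0.108, 0.0849, 0.0851 and 0.107), and without both libraries highest in pigment epithelium markers (0.188). *Klf9*, a known thyroid hormone target, had means of 52.4 and 51.9 RPKM with overlapping groups (limma adjusted p = 0.867), and fell by 0.35 under rod scaling. *Dio3* and *Slc16a10* were not listed.

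The order of the 10 levels was much the same in both genotypes, apart from *Crym*. In WT the mean RPKM decreased from *Glul* through *Apoe*, *Car2*, *Dkk3*, *Clu*, *Crym*, *Abca8a*, *Car14* and *Slc1a3* to *Aqp4*, and only the libraries of *Car14* and *Slc1a3* overlapped between neighbours. In *Mll1KO*, *Crym* was last, below *Aqp4*, and the neighbours *Dkk3* and *Clu*, *Car14* and *Slc1a3*, and *Aqp4* and *Crym* overlapped. By mean level over all libraries, *Glul* ranked 28 among 11339 genes, *Apoe* 48, *Car2* 84, *Dkk3* 122 and *Clu* 139, while *Aqp4* ranked 3696. Within a genotype, the SD of a gene was between 1.48% of the mean, for *Slc1a3* in *Mll1KO*, and 11.4%, for *Car14* in *Mll1KO*.

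General markers of Müller glia were listed for 19 of 20 genes, all but *Hes5*, and these 19 had values in every library. Some are not limited to Müller glia, since the paper places p27Kip1 (*Cdkn1b*) also in cycling cells and RAX in progenitors. Of these identity genes 3 rose and 6 fell, with a median of -0.07, against 3 and 5 with TMM factors, 7 and 5 when scaled to the identity genes themselves and 0 and 16 when scaled to rod genes. The retinaldehyde-binding protein gene *Rlbp1*, the most abundant of them, had 154, 166 and 168 RPKM in WT and 179, 176 and 167 in *Mll1KO*. Its groups overlapped (log2 fold change 0.09, SE 0.05, limma adjusted p = 0.188; adjusted p 0.00212 to 0.414 over the alternatives). It fell by 0.25 under rod scaling and passed as higher when libraries were scaled to the identity genes themselves (0.0185). The intermediate filament gene *Vim* fell from 117 ± 1.44 to 83.8 ± 3.72 RPKM (SD, n = 3), by 0.47 on the log2 scale (SE 0.04, limma adjusted p = 8.29e-05). The transcription factor *Lhx2* fell from 15.9 ± 0.484 to 11 ± 0.576 RPKM (SD, n = 3; log2 fold change -0.49, SE 0.05, limma adjusted p = 1.77e-04). *Dapl1* fell from 73.4 ± 1.81 to 53.0 ± 3.76 RPKM (SD, n = 3; log2 fold change -0.46, SE 0.05, limma adjusted p = 3.19e-04). *Id3*, an inhibitor of DNA binding by other factors, rose from 18.3 ± 1.54 to 25.8 ± 1.81 RPKM (SD, n = 3; log2 fold change 0.47, SE 0.07, limma adjusted p = 0.00114), a change of 0.14 under rod scaling that did not pass. Summed over the 19 genes, RPKM was 648, 662 and 655 in WT and 610.3, 622 and 612 in *Mll1KO*.

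Over the 8 companion lists together, 24 of 123 listed genes rose and 24 fell, or 39.0%, against 23.3% of all genes, with a median of 0.02 against -0.03. The lists were drawn up with earlier results of these data known, so nothing is read from this difference. With TMM factors 26 rose and 20 fell, with libraries scaled to the identity genes 40 rose and 17 fell, and under rod scaling 4 rose and 98 fell. By list, the share that passed ran from 23.1% in DKK and WNT signalling to 53.8% in carbon dioxide and acid-base handling. Nothing is read from these shares either.

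**Figure D3:**
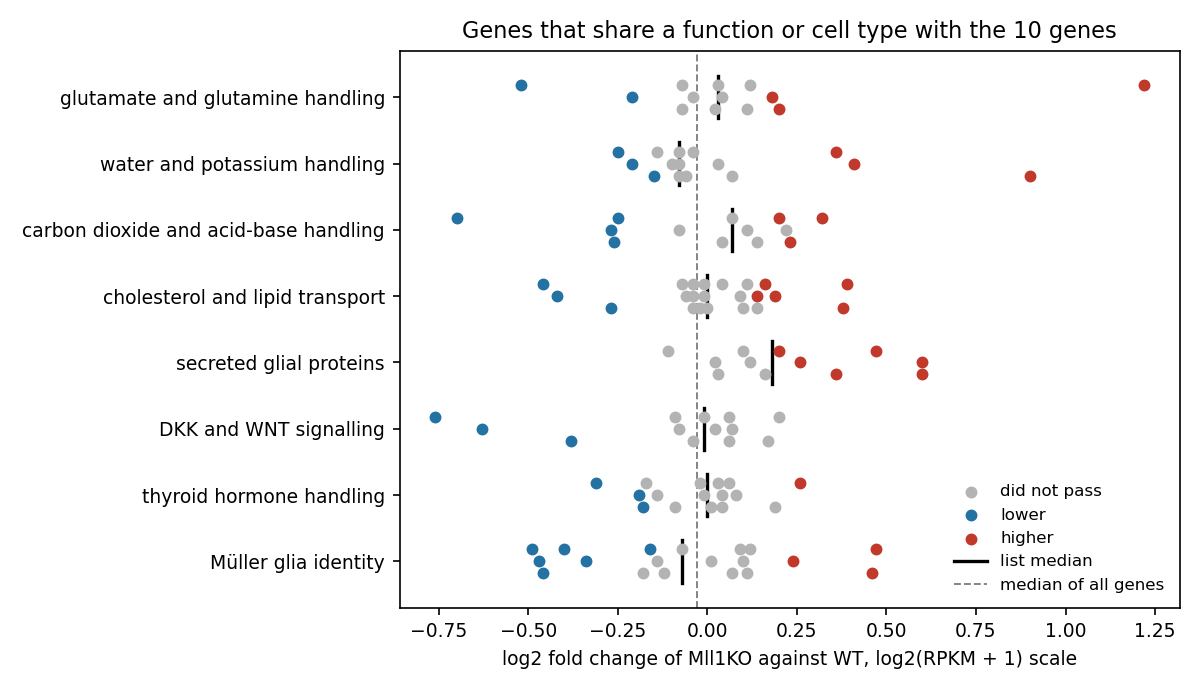
Log2 fold changes of *Mll1KO* against WT on the log2(RPKM + 1) scale (horizontal axis) for the 123 listed companion genes in 8 lists, with genes that rose in red, that fell in blue and that did not pass in grey, black bars for list medians and a dashed line at the median of all genes, -0.03. In the list of secreted glial proteins 6 genes rose and 0 fell (2 and 5 under rod scaling), and in DKK and WNT signalling 0 rose and 3 fell (1 and 3 with TMM factors).

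Of 5 listed markers of astrocytes, the other macroglia of the retina, 4 rose and 0 fell, also with TMM factors, and 2 rose under rod scaling. The other, *Pdgfra*, had means of 3.14 RPKM in WT and 3.61 in *Mll1KO* and did not pass (log2 fold change 0.16, SE 0.06, limma adjusted p = 0.0969). The summed RPKM of the 5 was 133, 123 and 138 in WT and 193, 195 and 188 in *Mll1KO*, most of it from *Aldoc*. *Aldoc*, the most abundant, which Müller glia express as well, had 119, 108 and 124 RPKM in WT and 170, 172 and 165 in *Mll1KO* (log2 fold change 0.53, SE 0.05, limma adjusted p = 1.41e-04). *Gfap*, an intermediate filament gene that defines astrocytes and is also expressed by stressed Müller glia, had 3.81, 4.40 and 4.16 RPKM in WT and 10.2, 8.50 and 8.42 in *Mll1KO* (log2 fold change 0.97, SE 0.08, limma adjusted p = 4.26e-05). The defining marker *Pax2* was not listed, nor was *Fgfr3*. The part of astrocytes in the values of *Slc1a3*, whose groups overlapped, and of *Glul*, *Aqp4*, *Apoe* and *Clu* was not tested.

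Microglia, which also express *Apoe*, had a summed RPKM over 5 listed markers of 25.6, 26.2 and 25.2 in WT and 25.7, 28.1 and 28.8 in *Mll1KO*. *C1qa*, *Tmem119*, *P2ry12*, *Aif1*, *Trem2* and *Tyrobp* were not listed. Of 10 listed vessel markers 1 rose and 4 fell, against 2 and 3 with TMM factors and 0 and 8 under rod scaling. By mean over all libraries the most abundant was *Kdr*, which is also expressed by retinal neurons. *Kdr* fell from a mean of 37.6 to 22.3 RPKM (log2 fold change -0.73, SE 0.07, limma adjusted p = 1.15e-04). *Rgs5* had means of 30.6 RPKM in WT and 25.4 in *Mll1KO*, where it was above *Kdr*. The vessel list summed to 133, 128 and 127 RPKM in WT and 106, 97.6 and 103 in *Mll1KO*, and *Kcnj8* was not listed. Red blood cell genes summed to 101, 80.9 and 207 in WT and 134, 178 and 212 in *Mll1KO*, with 0 of 4 passing, *Hbb-bs* the most abundant, and *Alas2* and *Slc4a1* not listed. Of 11 lens markers *Cryaa* alone was listed, at 6.54, 6.61 and 7.51 RPKM in WT and 32.1, 12.4 and 7.28 in *Mll1KO*. It did not pass (limma adjusted p = 0.0949) but was called higher under rod scaling.

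Markers of the neurons differed as well, rod markers having the highest summed RPKM of the 12 marker lists. Rod markers summed to 13639, 12564 and 13065 RPKM in WT and 16651, 16836 and 16345 in *Mll1KO*, and 6 of 8 rose and 0 fell (1 and 3 under rod scaling). Of 8 cone markers 6 rose and 1 fell, and 2 rose and 2 fell under rod scaling. By mean over all libraries *Opn1mw* led the cone list, at 90.2 RPKM in WT and 133 in *Mll1KO*. *Opn1sw*, the cone marker that fell, was above *Opn1mw* in WT, at means of 94.4 RPKM in WT and 69.1 in *Mll1KO* (log2 fold change -0.44, SE 0.06, limma adjusted p = 0.00121). Horizontal cell markers fell in 4 of 5 listed genes, with *Prox1* the most abundant, at means of 37.1 and 25.9 RPKM, and *Lhx1* and *Gja10* not listed. Among amacrine cell markers 2 rose and 5 fell of 9, with *Calb2* the most abundant at 255 and 180 RPKM, against 4 and 5 with TMM factors and 0 and 6 under rod scaling. Ganglion cell markers fell in 6 of 7 genes and bipolar cell markers in 3 of 5, or 5 of 7 and 2 of 5 with TMM factors. By mean over all libraries *Sncg* led the ganglion cell list, at 159 RPKM in WT and 108 in *Mll1KO*. *Thy1*, at 141 RPKM in WT and 118 in *Mll1KO*, was above *Sncg* in *Mll1KO* only. *Grm6* led the bipolar cell list, at 77.4 RPKM in WT and 64.8 in *Mll1KO*. The part of these shifts in the values of the 10 genes was examined only through the scalings given above.

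Genes with a profile like that of *Clu*, *Glul* and *Crym* were looked up by the root mean square difference of log2(RPKM + 1) over the 6 libraries, each profile centred on its own mean, as a description. Closest to *Clu* were *BC030499* at 0.047, *Optn* at 0.051 and *Wisp1* at 0.056, against a spread of 0.35 in the profile of *Clu* itself. *Optn*, which encodes the autophagy receptor optineurin, had 22.9, 22.1 and 24.8 RPKM in WT and 36.3, 37.6 and 38.9 in *Mll1KO*. For *Glul*, with a spread of 0.24, the closest were *Cldn19* at 0.025, *Jade2* at 0.026 and *Pde6a* at 0.031. *Cldn19*, at means of 2.46 RPKM in WT and 3.69 in *Mll1KO*, and *Jade2*, at 1.6 and 2.54, are weakly expressed. At such levels this scale understates changes, so their likeness to *Glul* depends on the scale. *Pde6a*, a subunit of the rod phosphodiesterase, had 406, 401 and 416 RPKM in WT and 562, 576 and 564 in *Mll1KO*. *Crym*, with a spread of 0.49, was most like *Pcsk6* at 0.091, *Rbpms2* at 0.1 and *Six3os1* at 0.105. *Rbpms2*, which encodes an RNA-binding protein found in ganglion cells, had 17.6, 17.4 and 17.7 RPKM in WT and 9.55, 8.66 and 8.78 in *Mll1KO*.

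MLL1 carries a CXXC domain that binds CG dinucleotides without methylation, which are dense at many promoters. The 250 bases before the transcription start in the RefSeq promoter table (GRCm38.p6) were therefore searched for CG, which reads the same on both strands. The table matched 5 of the 10 genes, *Glul*, *Slc1a3*, *Apoe*, *Car14* and *Abca8a*, and not *Aqp4*, *Dkk3*, *Clu*, *Crym* and *Car2*. *Glul* held 15 CG, and 27.3% of all 32851 promoters in the table held at least as many, or 55.4% of the 11412 promoters of genes with RPKM values. *Car14* held 10, *Abca8a* 4 and *Slc1a3* 2, the last a number reached by 81.2% of all promoters and 97.1% of those with RPKM values. For *Slc1a3* this start lies outside the coordinates given above for the gene, and the bases after it were not all found in its annotated transcripts. Its count is therefore less certain. At the 3 starts listed for *Apoe* the count was 8, 9 and 10. All 5 genes had fewer CG than the median of 16 among promoters of genes with RPKM values, while *Glul*, *Car14* and *Apoe* had more than the median of 6 among all promoters. Methylation was not measured.

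The promoters of *Glul* and *Slc1a3* are shown because they have the most and the fewest CG and belong to adjoining steps of glutamate clearance, and the outermost promoter of *Apoe* because it has an intermediate count. Each is written 5′ to 3′ on the strand of its gene, with CG in capitals. The stretch of *Glul*, chr1:153899679-153899928 on the plus strand, lies on the opposite strand within an exon of a retained-intron transcript of *Teddm2*. Those of *Slc1a3*, chr15:8710808-8711057, and *Apoe*, chr7:19699189-19699438, both on the minus strand, hold no annotated exon.
Glul: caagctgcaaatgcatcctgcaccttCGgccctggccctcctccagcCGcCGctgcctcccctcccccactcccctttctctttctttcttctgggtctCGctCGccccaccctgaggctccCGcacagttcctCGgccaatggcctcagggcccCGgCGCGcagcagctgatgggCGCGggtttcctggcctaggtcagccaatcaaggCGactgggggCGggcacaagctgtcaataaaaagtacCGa
Slc1a3: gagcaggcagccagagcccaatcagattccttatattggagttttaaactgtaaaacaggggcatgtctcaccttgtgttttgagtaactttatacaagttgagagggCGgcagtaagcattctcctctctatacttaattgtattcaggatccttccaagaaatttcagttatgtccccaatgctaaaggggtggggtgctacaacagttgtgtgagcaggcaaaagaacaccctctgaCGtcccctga
Apoe: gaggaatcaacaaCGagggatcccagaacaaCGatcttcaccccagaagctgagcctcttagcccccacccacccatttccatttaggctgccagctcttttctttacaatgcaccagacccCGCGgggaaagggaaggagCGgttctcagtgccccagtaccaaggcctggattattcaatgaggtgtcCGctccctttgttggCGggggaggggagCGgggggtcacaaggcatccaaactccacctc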

How the data were processed

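RNA from P14 retinas, 2 per sample, was sequenced as single-end reads. The authors aligned the reads with STAR (2.0.4b per the submitters' notes) to mm10, an Ensembl build that the Methods name GRCh38.76, counted reads per gene with featureCounts (1.45) and removed genes not reaching more than 5 CPM in 5 or more samples. The deposited table gives RPKM as computed by the authors, in which counts are divided by gene length and library size. Other columns of the table hold the authors' own edgeR comparison (fold change, mean CPM, p-value and FDR) and were not used.

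The table had 11404 lines for 11339 gene IDs, of which 59 were repeated, and 18 symbols turned into dates were restored. Coordinates came from GENCODE vM21, which holds 11323 of the IDs. Library totals and reads were inferred from RPKM by searching for whole reads (within 0.05). The annotated length was kept for 53.4% of matched genes. For the others the shortest length giving whole reads and passing the authors' filter was taken, which can be wrong, so read numbers are printed only for genes at their annotated length, and only limma-voom uses the rest. Strand use in counting is not given in the sources used here.

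Genotypes were compared with limma (3.58.1, R 4.3.3) on log2(RPKM + 1), with a variance trend, no other term, and Benjamini-Hochberg adjustment over all genes. The methods name edgeR, which was not used here because RPKM values are not counts. The p-values test the difference between genotypes against the spread between 3 biological replicates per genotype, moderated by the variance trend across all genes. The fit was tested on simulated data. Alternatives were pseudocounts of 0.1 and 5, TMM, upper-quartile and median-ratio factors, scaling to rod or Müller glia identity genes, a mean RPKM of at least 1, limma-voom on recovered reads, a replicate block, leaving out each library, and, chosen after seeing the data, leaving out both libraries highest in pigment epithelium markers.

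The 10 genes and all lists were chosen with earlier results of these data known. Genes were picked by a rule, and not all of them are described: the 10 genes and *Kmt2a*, in each companion list up to 4 called genes with the largest change and up to 2 with the highest mean RPKM, in each marker list the most abundant gene and absent defining markers, and the 3 profiles nearest to *Clu*, *Glul* and *Crym*. *Abca5*, *Abca6*, *Gfap*, *Pdgfra*, *Opn1sw*, *Thy1* and *Rgs5* were added after their values were seen. Python 3.11.15, numpy 2.4.6, pandas 2.3.3 and matplotlib 3.10.9 were used.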

Additional observations from a re-analysis of the deposited data

How the results depend on the processing

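The number of genes that passed, 2643, stayed within 1.5 times of that value under the pseudocounts, the filter on mean RPKM, limma-voom, TMM, upper-quartile, median-ratio and Müller glia identity scaling. It was 9965 under rod scaling, whose construction lowers *Mll1KO* values relative to WT. It was 1704 to 2536 with single libraries left out, lowest without WT replicate b and next without *Mll1KO* replicate c (1757), and 1662 without both libraries highest in pigment epithelium markers, a setting chosen after seeing the data; fewer samples were fitted there. Companion genes passing numbered 48, 39 to 48 with a library left out, and 102 under rod scaling. *Kmt2a* passed under every setting, from -1.02 under rod scaling to -0.60.

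Of the 10 genes 7 had a positive log2 difference, 7 to 8 with single libraries left out, 8 with scaling factors, 9 with identity scaling and 5 under rod scaling. There *Apoe* (-0.01) and *Car2* (-0.28) changed sign, as did *Slc38a3* (-0.15), *Got1* (-0.22), *Atp1b2* (-0.32), *Slc16a1* (-0.02), *Bsg* (-0.14), *Abca2* (-0.33) and *Rlbp1* (-0.25), and *Kcnj10*, *Abca8b*, *Sorl1*, *Timp3*, *Cst3*, *Slco1c1* and *Id3* were among those that no longer passed. Outside rod scaling, 18 of 624 values of the 39 companion genes picked by the naming rule lost their call and 7 gained one, and no call changed direction.

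The labels do not say whether replicate letters pair the libraries. The deviations of same-letter libraries from their group means had correlations across genes of -0.04, -0.19 and -0.01. Libraries with different letters had -0.09 to 0.13, and with so few libraries these values do not settle the pairing. With the letter as a replicate block, 2242 genes passed, 7 of the 10 genes had a positive difference and *Kmt2a* stayed at -0.69. Depth was inferred, and limits the weakly expressed genes most.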
